A study of Mus musculus with 12 samples.

Results

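The LPS response of airway macrophages (AMs), the resident phagocytes of the air spaces, was described in wild-type (WT) mice by RNA sequencing. The members are 6 of the 12 libraries in the study, namely 3 pools of WT cells (pools 16, 17 and 18), each split into cells kept in medium and cells exposed to lipopolysaccharide (LPS) from Pseudomonas aeruginosa. They were chosen by their labels alone, so that 3 LPS libraries stood against 3 medium libraries paired by pool number. The main fit held the library batch but not the pool, and a fit with pool as a block was an alternative. The other 6 libraries came from Scnn1b-Tg mice, in which the Scnn1b subunit of the epithelial sodium channel is overexpressed in the airways under the club cell secretory protein promoter, and they entered the fit to share the estimate of the spread.

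The WT mice were littermates of the transgenic line on a C57BL/6 background and 6 weeks old. For ex vivo treatment the study's methods join 3 to 4 lavages, and for sorted cells they give no pool size. A pool and not an animal is taken as the replicate. LPS was given at 100 ng/ml and both arms lasted 12 h. The labels describe adherent cells from lavage whereas the study's methods describe sorted cells from digested lung, and which account applies to these libraries cannot be told apart. By the labels pools 16 and 17 were in batch 1 and pool 18 in batch 2, with both arms of a pool in the same batch. The paper put the date of library preparation in its model, and no dates are given with the batch numbers.

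LPS, a glycolipid of the gram-negative outer membrane, is handed by Cd14 to the receptor complex of Tlr4 and Ly96. The adaptors Myd88 and Tirap lead from there to NF-kB and to the cytokine genes, while Ticam1 and Ticam2 lead to Irf3, to type I interferon and, through the interferon receptor, to the interferon-stimulated genes. Resting AMs are known for clearing surfactant lipid under the control of Pparg and GM-CSF, for oxidative metabolism, for scavenger receptors and for surface proteins such as Siglecf.

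Sequences upstream of the start of 6 genes that rose are shown first, since these genes stand for the 2 transcription programs described below: the clustered neutrophil chemokine genes Cxcl1, Cxcl2 and Cxcl3, the NF-kB inhibitor gene Nfkbia, and the interferon-stimulated genes Ifit1 and Isg15. Each stretch holds the 250 bases before the RefSeq start of the gene (GRCm38.p6), read 5′ to 3′ on the gene's strand. Capitals mark matches on either strand to a kB motif (GGG, any 3 bases and TTCC) or an interferon-stimulated response element (GAAA, any 2 bases and GAAA), and overlapping matches are joined. Cxcl1 (chr5:90890995-90891244, plus strand), Cxcl2 (chr5:90903649-90903898, plus strand) and Cxcl3 (chr5:90785851-90786100, plus strand) lie in one cluster. Nfkbia is at chr12:55492648-55492897, minus strand, Ifit1 at chr19:34640639-34640888, plus strand and Isg15 at chr4:156200819-156201068, minus strand.
Cxcl1: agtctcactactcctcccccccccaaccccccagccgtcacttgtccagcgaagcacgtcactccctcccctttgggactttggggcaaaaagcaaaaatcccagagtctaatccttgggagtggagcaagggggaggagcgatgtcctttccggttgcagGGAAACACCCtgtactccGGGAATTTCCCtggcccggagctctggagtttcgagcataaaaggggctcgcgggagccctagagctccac
Cxcl2: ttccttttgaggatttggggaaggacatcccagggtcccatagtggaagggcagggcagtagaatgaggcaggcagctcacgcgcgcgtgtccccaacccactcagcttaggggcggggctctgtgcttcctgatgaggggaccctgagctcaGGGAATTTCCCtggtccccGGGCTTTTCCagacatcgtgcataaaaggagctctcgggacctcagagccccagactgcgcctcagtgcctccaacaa
Cxcl3: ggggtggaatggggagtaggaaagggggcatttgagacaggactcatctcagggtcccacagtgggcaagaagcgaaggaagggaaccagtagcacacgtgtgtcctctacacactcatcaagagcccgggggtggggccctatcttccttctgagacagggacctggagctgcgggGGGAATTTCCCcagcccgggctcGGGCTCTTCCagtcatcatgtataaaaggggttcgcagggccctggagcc
Nfkbia: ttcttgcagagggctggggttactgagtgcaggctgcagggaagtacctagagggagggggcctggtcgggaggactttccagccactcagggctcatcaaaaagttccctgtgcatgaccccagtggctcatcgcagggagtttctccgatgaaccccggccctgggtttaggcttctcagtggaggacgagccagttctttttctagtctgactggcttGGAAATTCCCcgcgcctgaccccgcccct
Ifit1: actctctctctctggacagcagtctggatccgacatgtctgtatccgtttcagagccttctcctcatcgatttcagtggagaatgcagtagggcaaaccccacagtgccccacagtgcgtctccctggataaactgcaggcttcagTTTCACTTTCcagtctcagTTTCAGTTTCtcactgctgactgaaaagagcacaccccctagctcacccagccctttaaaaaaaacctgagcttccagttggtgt
Isg15: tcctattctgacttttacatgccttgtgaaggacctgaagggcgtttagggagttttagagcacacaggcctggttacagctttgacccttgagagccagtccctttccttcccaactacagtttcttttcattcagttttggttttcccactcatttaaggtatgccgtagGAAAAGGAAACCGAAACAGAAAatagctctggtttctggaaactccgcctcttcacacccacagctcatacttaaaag

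The 3 chemokine promoters held the same run of 11 bases, GGGAATTTCCC, which matched the kB motif on both strands and began 71, 97 and 73 bases before the start of Cxcl1, Cxcl2 and Cxcl3. Each held 1 further match. The Nfkbia promoter held 1 match 29 bases before the start. Ifit1 held 2 matches to the interferon element, and in Isg15 3 overlapping matches formed a run of 22 bases beginning 78 bases before the start. Of the 32851 promoter windows searched, 4.65% held the kB motif and 2.98% the interferon element. An AP-1 motif (TGA, any base and TCA) was searched as well. It was held by 6.75% of the windows and had no match in the promoters shown. The genes shown were chosen to stand for their transcription programs, so setting their matches beside these shares cannot test enrichment. These matches are descriptions of letters and were not tested as binding sites.

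The 6 WT libraries held 48191248 to 60896505 estimated counts and 14918 to 16165 genes with at least 1 count. The first principal component (55.7% of the variance) separated LPS from medium, and the second (16.4%) separated the pools, with pool 17 lowest and pool 18 highest in both arms. The third (12.6%) set pool 16 apart in both arms, with its LPS library at 46.2 against -29.0 and -14.9 for pools 17 and 18. In its own analysis of components the paper describes 1 outlier among the LPS-treated WT samples, and its text does not name the library. All 32 markers of resident AMs were above the floor in some library, and their summed level was 36148 to 39936 CPM (counts scaled to library size) in medium and 26315 to 28677 with LPS. Most markers of other cells were low: summed neutrophil markers were at 5.62 to 13.9 CPM in medium and 8.57 to 10.2 with LPS with S100a9 at 0 throughout, B cell markers stayed at 1.89 CPM or below, and epithelial markers were at 95.7 to 115 and 87.1 to 131 CPM. The T and NK cell list was at 24.5 to 30.2 CPM in medium and 149 to 222 CPM with LPS, but 98.9% of it was Il7r and Gzmb was at 0. The eosinophil list was at 2.79 to 3.40 CPM in medium and 52.6 to 72.2 CPM with LPS, of which 99.6% was Siglece. The monocyte list was at 9603 to 10379 CPM in medium and 6841 to 8888 CPM with LPS, of which 98.6% was Chil3, itself on the AM list. Of its 7 tested members 2 were called as rising and 1 as falling. Treml4 of that list was at a mean of 57.4 CPM in medium and 189 CPM with LPS. The dendritic cell list was at 86.8 to 195 CPM in medium and 205 to 426 CPM with LPS, of which 98.4% was the interferon-stimulated gene Bst2. Scnn1b, the transgene, was under 1 CPM in the WT libraries and also in the Scnn1b-Tg libraries (0.07 to 0.55 CPM). Its level therefore cannot tell the genotypes apart. Within the neutrophil list mean S100a8 went from 2.86 to 7.32 CPM and mean Cxcr2 from 4.01 to 0.19 CPM. Endothelial markers were at 67.4 to 80.6 CPM in medium and 53.8 to 72.8 CPM with LPS, of which 98.5% was Vwf. Fibroblast markers were at 2.81 to 3.26 CPM in medium and 6.11 to 8.57 CPM with LPS. Of their 2 tested members 1 was called as rising and 1 as falling. The part of other cells in the results was not tested. In pooled cells, fewer cells of a type and less RNA per cell cannot be told apart.

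To ask which genes answer LPS, 13729 genes were tested with edgeR's quasi-likelihood test, and a gene was called at an adjusted p under 0.05. LPS changed 4242 genes (30.9% of those tested), of which 2084 rose (15.2%) and 2158 fell (15.7%). The median size of a call was 0.71 on the log2 scale for rises and -0.72 for falls. A change past 1 on the log2 scale, or 2-fold, was met by 758 rises (5.52%) and 734 falls (5.35%), and past 3 by 236 rises and 86 falls. Over all genes tested the median log2 fold change was 0.00. Of the called genes, 4234 moved in the same direction in every pool, and the groups did not overlap for 5315 of all genes tested (38.7%). The median size of the called differences was 0.68, 0.74 and 0.73 in pools 16, 17 and 18. At unadjusted p under 0.05, 5506 genes passed. With pool as a block in place of batch, a fit quoted below where it changed a call, 5027 genes were called (36.6%), of which 2474 rose and 2553 fell (18.6%). Below, a count of members is read against these shares, and each value with ± is a log2 fold change with its standard error unless a level is stated.

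**Figure D1:**
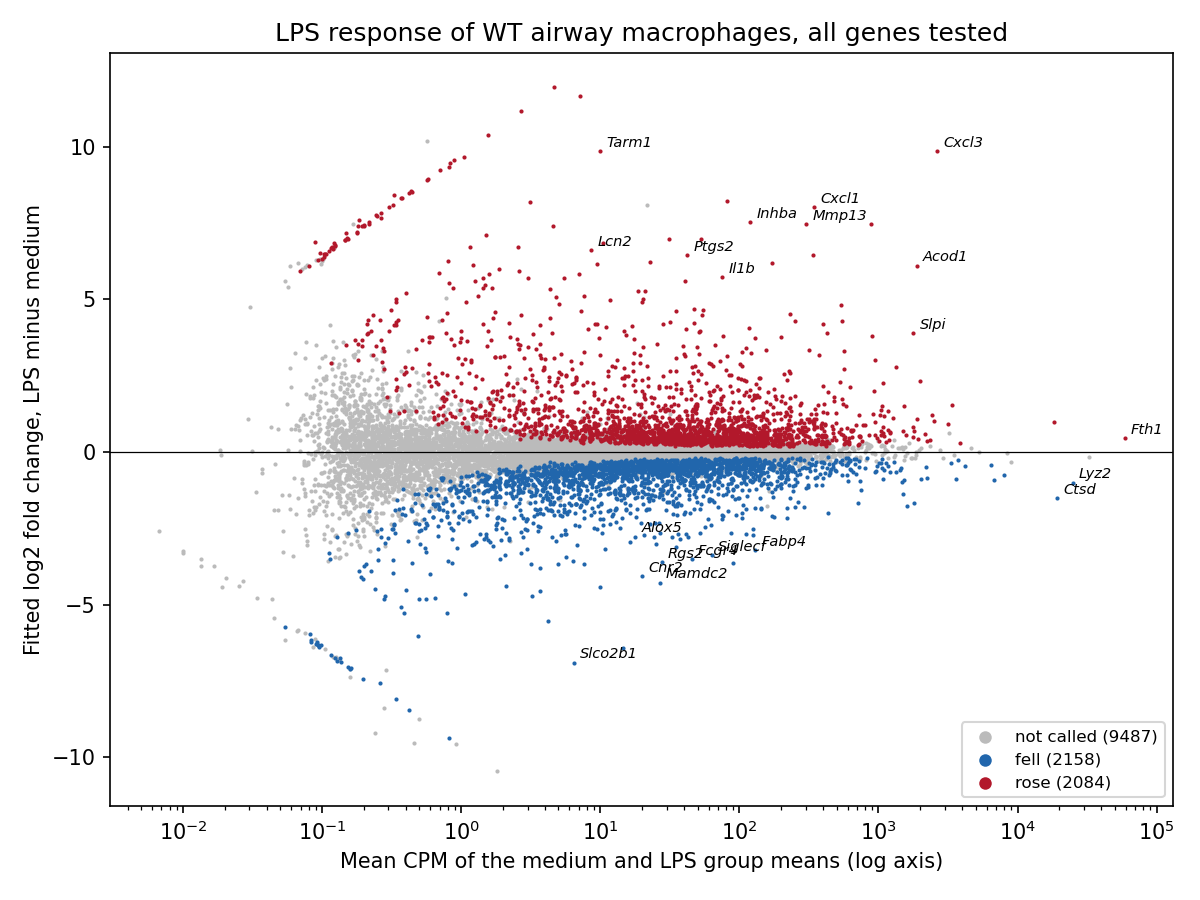
Fitted log2 fold change (LPS minus medium) against the mean CPM of the group means on a log axis, for every gene tested in WT AMs. Each point is a gene, red where it rose (2084), blue where it fell (2158) and grey where it was not called. The diagonal edges at low CPM are genes at or near 0 in all libraries of a group.

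**Figure D2:**
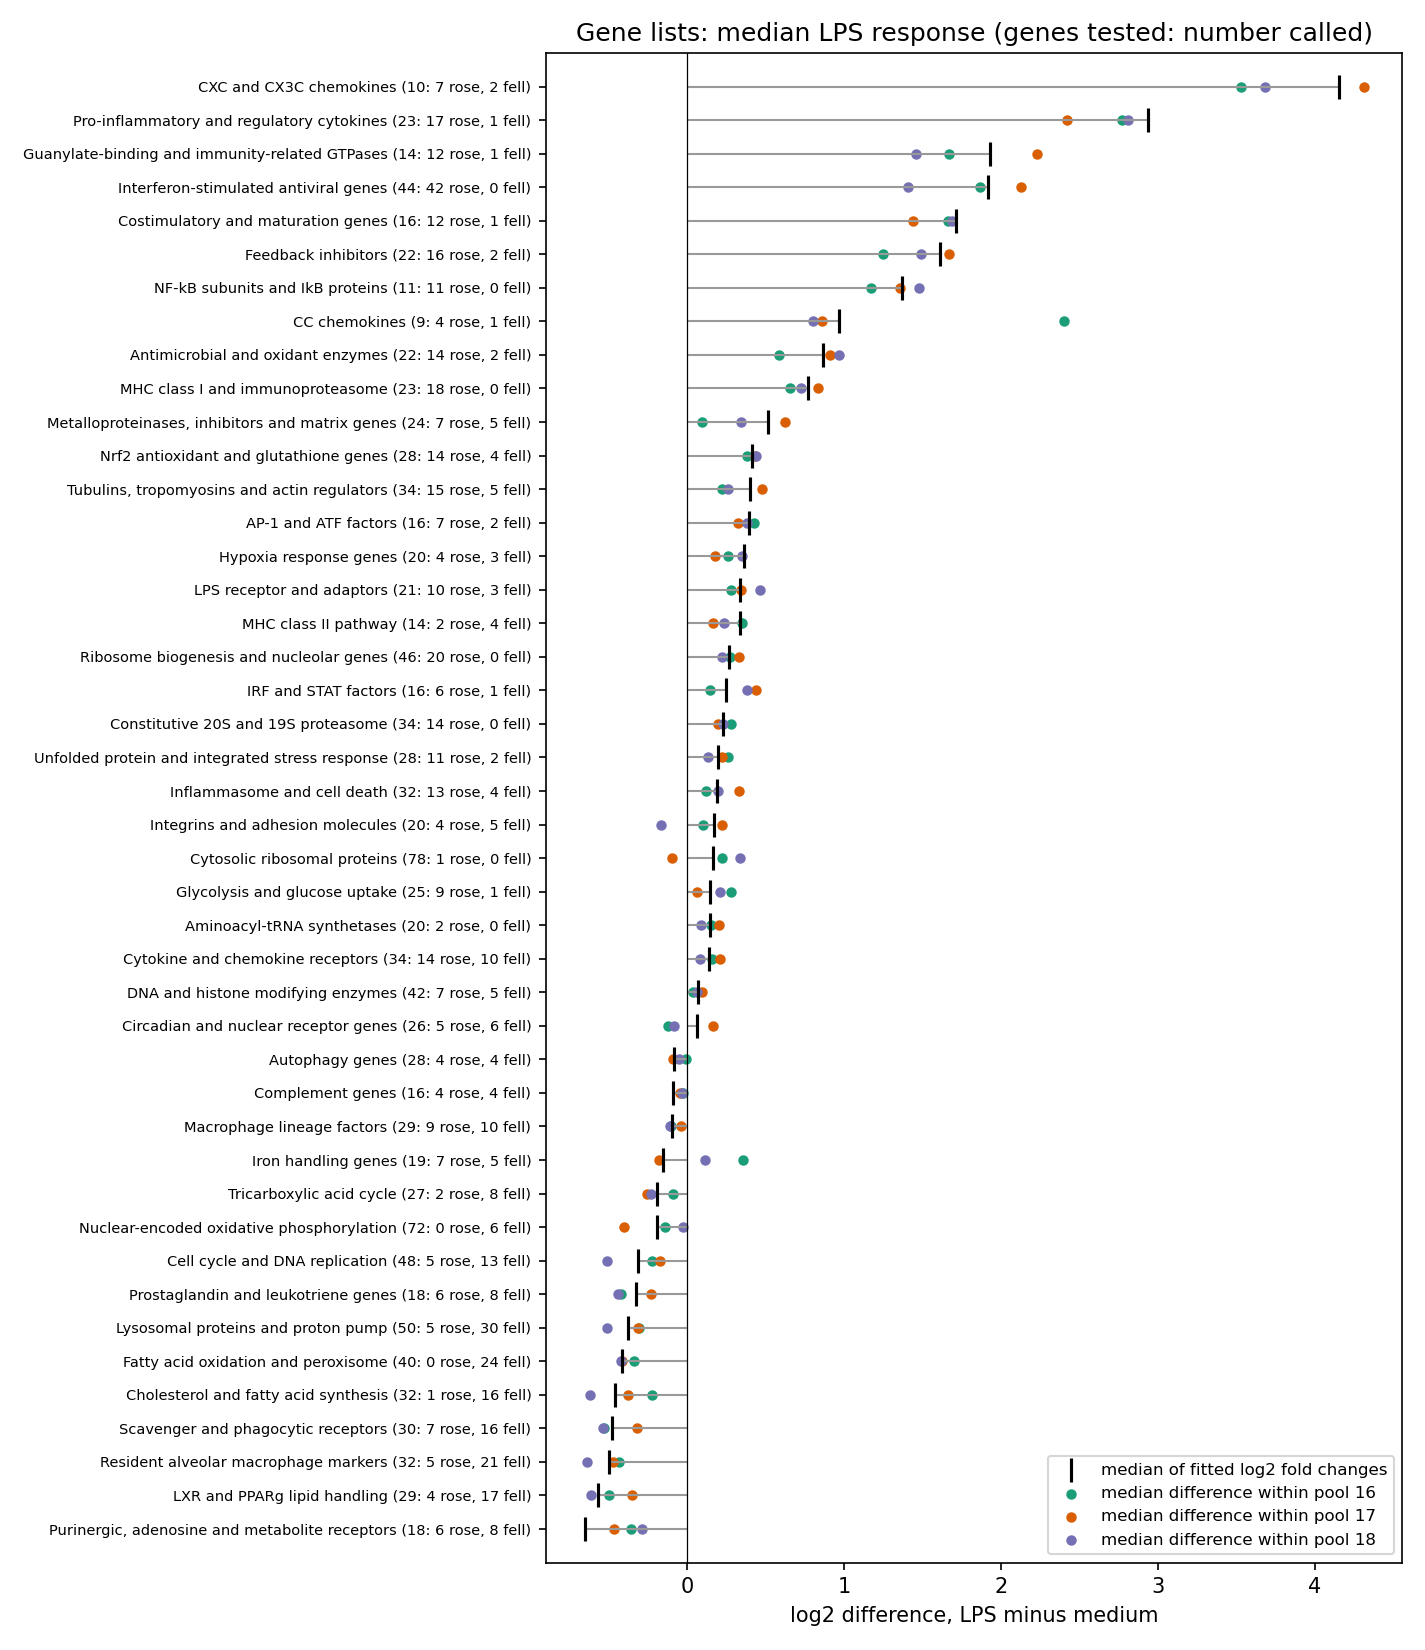
Median log2 difference (LPS minus medium) of 44 gene lists. The black bar is the median of the fitted log2 fold changes, coloured points are the medians within each pool, and the brackets give the number of members tested and called. CXC chemokines and cytokines lie farthest to the right and receptors for purines and metabolites and lipid handling farthest to the left.

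Of the receptor and its adaptors, 10 of 21 members rose and 3 fell, with a median of 0.34. Cd14, which loads LPS onto the receptor, was at 55.5, 49.3 and 67.4 CPM in medium and 581, 561 and 584 CPM with LPS in pools 16, 17 and 18 (log2 fold change 3.34, SE 0.10, adjusted p = 1.47e-08). Its libraries lay far apart by arm and close together within an arm. The kinase gene Ikbke rose by 1.36 ± 0.11 and Myd88 by 0.34 ± 0.07. Tlr4 itself went the other way and had the most uneven difference between pools of the called genes with a mean of at least 20 CPM: its CPM was 45.3, 50.8 and 40.9 in medium and 34.8, 11.6 and 3.57 with LPS (log2 fold change -1.65, SE 0.50, adjusted p = 0.0284). The log2 difference of Tlr4 within the pools was -0.38, -2.12 and -3.50, so the fall was slight in pool 16 and large in pool 18. The adjusted p of Tlr4 was 0.0894 without the pool 17 LPS library, 0.0556 without the pool 18 LPS library, 0.0603 without the pool 17 medium library and 0.1 without the pool 18 medium library. Ticam2, the bridging adaptor of the interferon arm, fell by 0.42 on the log2 scale (SE 0.10, adjusted p = 0.00817).

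All 11 NF-kB subunit and IkB genes rose, with a median of 1.37. Nfkbiz, a nuclear IkB protein that drives a second set of NF-kB targets, was at 3.49, 3.06 and 3.96 CPM in medium and 82.0, 99.9 and 89.0 CPM with LPS (log2 fold change 4.69, SE 0.13, adjusted p = 1.47e-08). Nfkbia, whose promoter is shown above and whose protein holds NF-kB in the cytosol, was at 235, 202 and 202 CPM without and 729, 678 and 842 CPM with LPS (log2 fold change 1.81, SE 0.12, adjusted p = 1.26e-06). The subunit genes Nfkb1 and Rela rose less, by 1.07 ± 0.09 and 0.89 ± 0.11, and Nfkbie by 1.97 ± 0.13. No library of one arm reached the range of the other for any of these 5 genes.

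The feedback inhibitors rose with them: 16 of 22 rose and 2 fell, with a median of 1.61. Traf1, a signalling adaptor of the TNF receptor family, was at 0.734, 1.08 and 0.683 CPM in medium and 91.0, 118 and 107 CPM with LPS (log2 fold change 6.99, SE 0.27, adjusted p = 4.19e-08). Socs3, an inhibitor of JAK and STAT signalling, was at 5.30, 5.36 and 3.76 CPM without and 83.4, 109 and 75.6 CPM with LPS (log2 fold change 4.22, SE 0.15, adjusted p = 3.4e-08). The deubiquitinase gene Tnfaip3 rose by 2.36 ± 0.28 and the MAP kinase phosphatase gene Dusp1 by 1.71 ± 0.10. Cd200r1, an inhibitory receptor that AMs carry at rest, fell by 0.49 on the log2 scale (SE 0.08, adjusted p = 0.00119).

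The AP-1 and ATF factors were mixed, with 7 of 16 rising and 2 falling. Fosl1 was at 2.78, 1.98 and 4.44 CPM in medium and 52.1, 59.5 and 49.97 CPM with LPS (log2 fold change 4.19, SE 0.30, adjusted p = 2.25e-06), and the small Maf gene Maff rose by 1.74 ± 0.17. Fos, the early gene of the family, was at 22.8, 23.3 and 28.2 CPM without and 8.15, 11.6 and 11.3 CPM with LPS and fell (log2 fold change -1.25, SE 0.17, adjusted p = 0.000273). Atf3 did not pass (-0.12 ± 0.10, adjusted p = 0.416), nor did Jun (-0.25 ± 0.09, adjusted p = 0.0544; with pool as a block, adjusted p = 0.0301).

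Cytokine genes gave the second highest list median, 2.94, with 17 of 23 tested members rising and 1 falling. The fall, that of Il18, is given below. Inhba, the subunit of activin A, was at 0.877, 1.26 and 2.13 CPM in medium and 161, 326 and 226 CPM with LPS (log2 fold change 7.52, SE 0.61, adjusted p = 6.14e-06). Il1b, the precursor of interleukin 1 beta, was at 3.15, 2.99 and 2.19 CPM without and 162, 145 and 136 CPM with LPS (log2 fold change 5.73, SE 0.26, adjusted p = 1.01e-07). Tnf was already present in medium at 38.8, 28.8 and 45.3 CPM and reached 939.5, 976 and 1215 CPM (log2 fold change 4.80, SE 0.17, adjusted p = 3.4e-08). Every LPS library exceeded every medium library for these 3 genes. Some cytokine genes stayed low in level (chosen after their values were seen). Il6 reached 3.55, 2.26 and 2.91 CPM and Il12b 1.38, 1.67 and 1.49 CPM with LPS, although both rose (adjusted p = 5.9e-05 and 0.000915). Il10, Il12a, Il23a and Csf2 did not pass the filter on low counts. The paper reports a strong response of AMs to LPS that included Il6 and Il12b by qPCR and IL-6 and IL-23 protein. Those measures are unlike a level in CPM.

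The neutrophil-attracting chemokine genes Cxcl3, Cxcl1 and Cxcl2 were among the 10 largest rises in fold. In the list of CXC and CX3C chemokines 7 of 10 rose and 2 fell, with the highest median of all lists (4.15). Cxcl3 (ENSMUSG00000029379; chromosome 5, 90786103 to 90789600) was at 6.97, 2.65 and 8.38 CPM in medium and 5737, 4526 and 5598 CPM with LPS (log2 fold change 9.86, SE 0.57, adjusted p = 6.43e-07). Cxcl1 (chromosome 5, 90891241 to 90893115) was at 2.94, 2.34 and 2.29 CPM without and 699, 491 and 867 CPM with LPS (log2 fold change 8.02, SE 0.36, adjusted p = 1.01e-07), and Cxcl2 (chromosome 5, 90903871 to 90905938) at 12.2, 6.27 and 10.5 CPM without and 1775, 1334 and 2189 CPM with LPS (log2 fold change 7.48, SE 0.33, adjusted p = 9.06e-08). These are the 3 genes whose promoters share the kB run above. Whether reads were shared among these related genes was not tested. Cxcl16, a transmembrane chemokine that also binds oxidised lipid, rose by 3.34 ± 0.11 and the interferon-induced Cxcl10 by 4.96 ± 0.29. Cx3cl1 was at 36.1, 47.998 and 40.2 CPM without and 7.23, 9.80 and 7.52 CPM with LPS and fell (log2 fold change -2.34, SE 0.15, adjusted p = 1.06e-06), as did Cxcl14 (-1.53 ± 0.19).

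Neighbouring CC chemokine genes moved in opposite directions. Ccl5 (chromosome 11, 83525778 to 83530518), Ccl6 (chromosome 11, 83587882 to 83593087), Ccl3 (chromosome 11, 83647844 to 83649355) and Ccl4 (chromosome 11, 83662584 to 83664683) lie in this order in one cluster. Ccl3 was at 22.4, 15.4 and 19.4 CPM in medium and 469, 358 and 515 CPM with LPS (log2 fold change 4.53, SE 0.21, adjusted p = 1.21e-07), and Ccl4 and Ccl5 rose by 5.01 ± 0.31 and 4.91 ± 0.16. Ccl6, expressed by resting AMs, was at 135, 139 and 167 CPM in medium and 54.3, 57.3 and 73.7 CPM with LPS (log2 fold change -1.26, SE 0.36, adjusted p = 0.022). The groups did not overlap for Ccl6, but its adjusted p was 0.0514 without the pool 16 LPS library, 0.0936 without the pool 18 LPS library, 0.0597 without the pool 16 medium library and 0.0668 without the pool 17 medium library. Ccl22 was at 9.90, 15.7 and 8.66 CPM without and 10.4, 28.6 and 12.05 CPM with LPS and did not pass (0.57 ± 0.39, adjusted p = 0.312). Over the list 4 of 9 members rose and 1 fell.

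**Figure D3:**
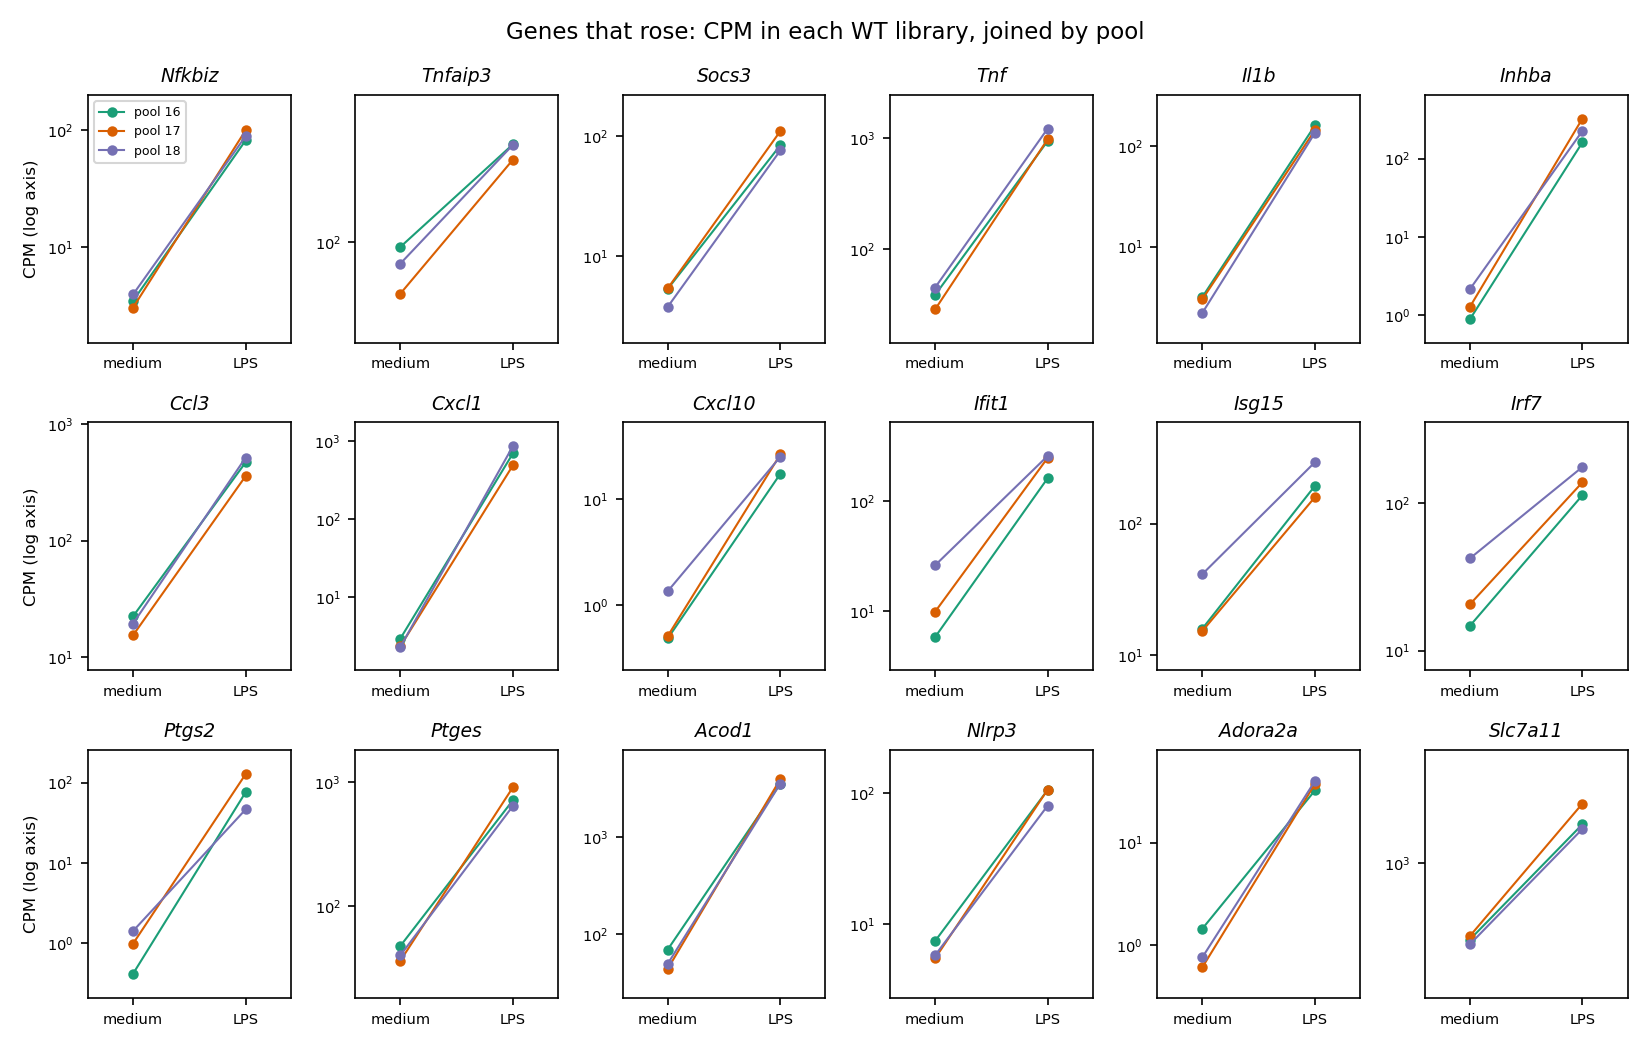
CPM on log axes in each WT library for 18 genes that rose, with medium on the left, LPS on the right and lines joining the arms of each pool. For every gene shown the 3 LPS libraries lie above the 3 medium libraries, and for Ifit1, Isg15 and Irf7 the medium library of pool 18 lies highest.

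Among cytokine and chemokine receptors 14 of 34 rose and 10 fell. The formyl peptide receptor gene Fpr1, which senses bacterial peptides, was at 59.6, 41.9 and 57.5 CPM in medium and 792, 715 and 897 CPM with LPS (log2 fold change 3.91, SE 0.16, adjusted p = 5.79e-08). Gpr84, a receptor for medium-chain fatty acids, rose by 3.91 ± 0.19, the TNF receptor gene Tnfrsf1b by 1.02 ± 0.11 and the M-CSF receptor gene Csf1r by 0.58 ± 0.13. Tgfbr2, a subunit of the TGF-beta receptor on which AM identity depends, was at 365, 451 and 347 CPM in medium and 104, 137 and 93.1 CPM with LPS and fell (log2 fold change -1.81, SE 0.14, adjusted p = 4.77e-06), and the interleukin 6 receptor gene Il6ra fell by 1.87 on the log2 scale (SE 0.23, adjusted p = 0.000103). Csf2ra, the alpha chain of the GM-CSF receptor, did not pass (-0.10 ± 0.09, adjusted p = 0.449).

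Receptors for purines and metabolites were divided. Adora2a, the adenosine receptor that dampens inflammatory signalling, was at 1.45, 0.611 and 0.763 CPM in medium and 32.4, 37.5 and 40.02 CPM with LPS (log2 fold change 5.27, SE 0.37, adjusted p = 1.95e-06). Adora2b rose by 2.41 ± 0.27 and the nicotinic acid and butyrate receptor gene Hcar2 by 2.09 ± 0.12. The UDP receptor gene P2ry6 was at 33.4, 33.7 and 40.4 CPM without and 9.86, 14.03 and 11.8 CPM with LPS and fell (log2 fold change -1.58, SE 0.19, adjusted p = 0.000112), and the fatty acid receptor gene Ffar4 fell too (-1.396 ± 0.13). P2rx4 did not pass (-0.15 ± 0.07, adjusted p = 0.117). Of 18 members 6 rose and 8 fell, and the median was -0.65.

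Interferon-stimulated antiviral genes rose almost as a whole: 42 of 44 rose and none fell, with a median of 1.92, against 15.2% rising over all genes. The members that did not pass, named after their values were seen, were Ifi44, with under 1 CPM in every library, and Ifi209 (1.44 ± 0.56, adjusted p = 0.0765). Isg15, a ubiquitin-like modifier, was at 15.9, 15.3 and 41.4 CPM in medium and 195, 159.7 and 295 CPM with LPS (log2 fold change 3.24, SE 0.25, adjusted p = 3.9e-06). Ifit1, which binds viral RNA, was at 5.87, 9.94 and 26.1 CPM without and 160.0, 244 and 254 CPM with LPS (log2 fold change 4.05, SE 0.48, adjusted p = 8.45e-05), and Rsad2, the gene of viperin, at 8.09, 8.66 and 28.0 CPM without and 68.5, 135 and 116 CPM with LPS (log2 fold change 2.92, SE 0.49, adjusted p = 0.000991). Ifi205 gave the largest rise of the list above 5 CPM, 6.21 ± 0.28.

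The medium libraries differed in these genes. In medium all 44 were highest in pool 18, whereas pool 18 was highest for 33.7% of all genes tested. The median level of the list in medium was 3.96, 4.01 and 5.03 log2 CPM in pools 16, 17 and 18, and with LPS 6.14, 6.75 and 6.75 log2 CPM. The LPS libraries of pools 17 and 18 thus ended level while their medium libraries started apart, and the median difference within pools 16, 17 and 18 was 1.87, 2.13 and 1.41. Pool 18 had the smallest difference for 37 of the 44 genes, against 37.3% of all genes tested. Pool 18 is the only WT pool of batch 2, so that pool and batch cannot be told apart.

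**Figure D4:**
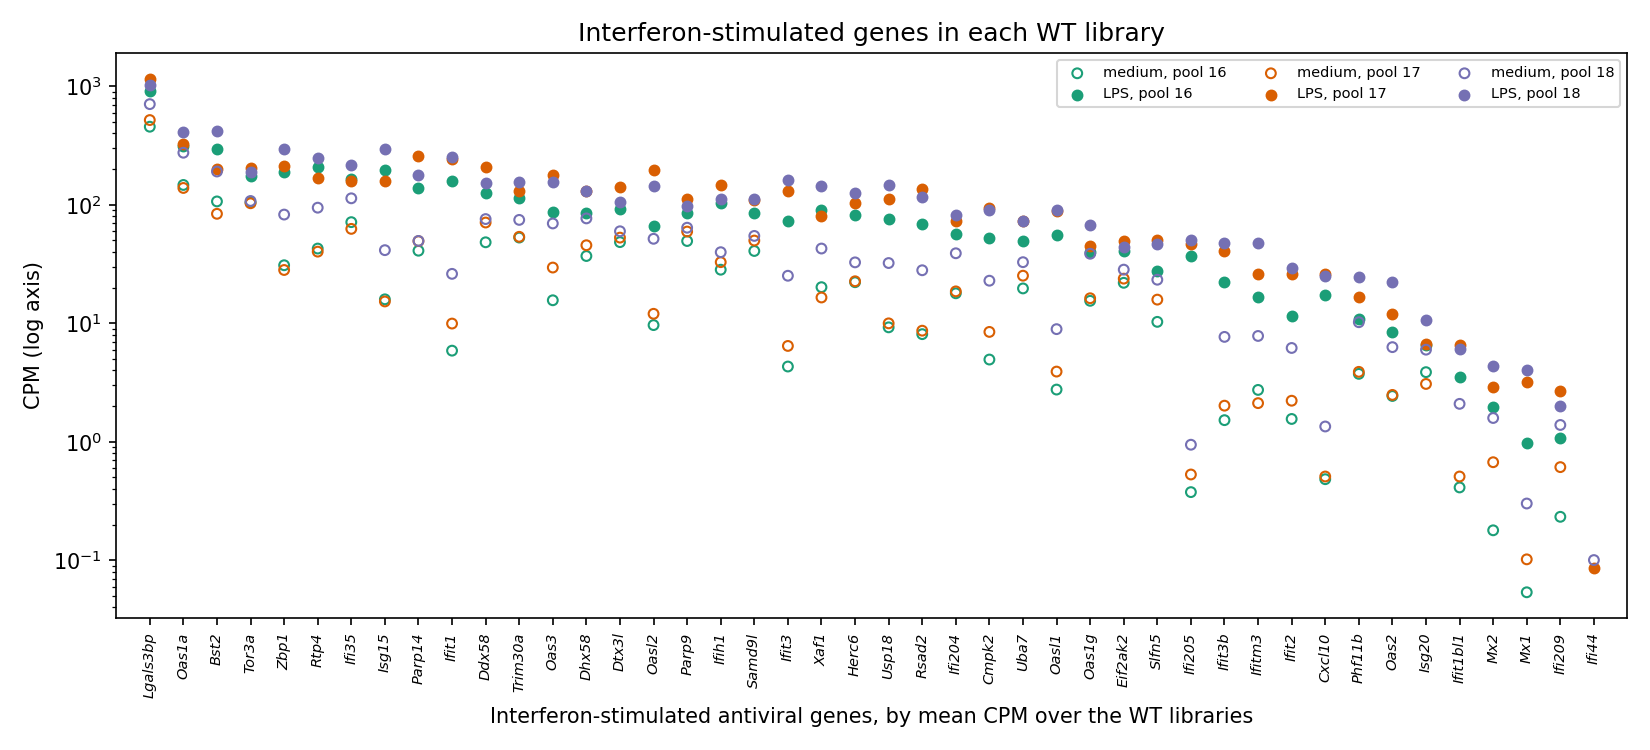
CPM on a log axis of the 44 interferon-stimulated antiviral genes tested, ordered by their mean over the WT libraries, with open circles for medium, filled circles for LPS and one colour for each pool. The open circles of pool 18 lie above those of pools 16 and 17 for all 44 genes. Libraries at 0, which 1 gene (Ifi44) has, are not drawn.

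Guanylate-binding and immunity-related GTPases, which attack the membranes around microbes, followed: 12 of 14 rose and 1 fell, with a median of 1.93. Gbp2 was at 24.4, 20.5 and 39.6 CPM in medium and 328, 363 and 429 CPM with LPS (log2 fold change 3.76, SE 0.21, adjusted p = 4.45e-07), and its neighbours Gbp2b and Gbp3 rose by 6.17 ± 0.47 and 4.50 ± 0.38. Irgm1 rose by 1.16 ± 0.18, whereas Gbp8 fell by 0.95 on the log2 scale (SE 0.22, adjusted p = 0.00724). Reads of these families may be shared between copies.

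Of the IRF and STAT factors 6 of 16 rose and 1 fell, and with pool as a block 8 rose and 4 fell. Irf7, the factor that amplifies type I interferon, was at 14.7, 20.5 and 42.0 CPM in medium and 113, 138 and 175 CPM with LPS (log2 fold change 2.53, SE 0.27, adjusted p = 4.76e-05), again highest in medium in pool 18. Irf1 rose by 1.11 ± 0.10. Irf8, a lineage factor of macrophages, was at 162, 184 and 188 CPM without and 102, 98.9 and 99.1 CPM with LPS and fell (log2 fold change -0.83, SE 0.11, adjusted p = 0.000182).

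Inflammasome genes rose in part, with 13 of 32 rising and 4 falling. Nlrp3, the sensor that needs priming before it assembles, was at 7.49, 5.52 and 5.83 CPM in medium and 106, 106 and 80.4 CPM with LPS (log2 fold change 3.95, SE 0.15, adjusted p = 4.19e-08). Casp4, the mouse caspase 11 that binds cytosolic LPS, rose by 1.503 ± 0.13 and Zbp1, a sensor of unusual nucleic acids, by 2.41 ± 0.24. The pore-forming effector gene Gsdmd did not pass: it was at 80.8, 78.8 and 89.7 CPM in medium and 93.7, 88.0 and 109.6 CPM with LPS (0.22 ± 0.08, adjusted p = 0.0609; with pool as a block, adjusted p = 0.0216). Il18, the other cytokine cleaved by inflammasomes, fell (-0.50 ± 0.16), with an adjusted p of 0.125 without the pool 17 LPS library, 0.16 without the pool 18 LPS library, 0.137 without the pool 16 medium library, 0.056 without the pool 17 medium library and 0.093 without the pool 18 medium library, and Nek7, a partner of Nlrp3, fell (-0.40 ± 0.07), a call lost without the batch term (adjusted p = 0.104). Bbc3, a promoter of apoptosis, fell by 0.85 on the log2 scale (SE 0.10, adjusted p = 6.92e-05).

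Of the antimicrobial and oxidant genes 14 of 22 rose and 2 fell. Acod1, which makes itaconate from a tricarboxylic acid cycle intermediate, was at 69.1, 43.6 and 49.1 CPM in medium and 3581, 3984 and 3584 CPM with LPS (log2 fold change 6.11, SE 0.18, adjusted p = 1.47e-08). Lcn2, which binds bacterial siderophores, was at 0.0895, 0.0611 and 0.382 CPM without and 22.8, 8.76 and 19.3 CPM with LPS (log2 fold change 6.601, SE 0.49, adjusted p = 2.83e-06). Nos2, the inducible nitric oxide synthase, held 0 counts in each medium library and 3, 30 and 7 counts in the LPS libraries of pools 16, 17 and 18. Its mean level with LPS was at least 1.53-fold higher than in medium, with medium set at the floor of 8 counts per library. Its call (adjusted p = 0.0289) was lost with pool as a block (adjusted p = 0.0565), and its adjusted p was 0.0539 without the pool 17 LPS library, 0.063 without the pool 16 medium library, 0.0622 without the pool 17 medium library and 0.0623 without the pool 18 medium library. The lysozyme gene Lyz2, the most abundant transcript per length among the genes that fell, was at 33985, 30985 and 34412 CPM in medium and 17849, 13899 and 18053 CPM with LPS (log2 fold change -1.001, SE 0.11, adjusted p = 5.68e-05), and its paralog Lyz1 fell as well (-0.84 ± 0.19).

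Oxidative stress genes of the Nrf2 and glutathione list rose in 14 of 28 cases and fell in 4. Slc7a11, the cystine carrier that feeds glutathione synthesis, was at 372, 389 and 350.1 CPM in medium and 1655, 2162 and 1559 CPM with LPS (log2 fold change 2.26, SE 0.13, adjusted p = 5.4e-07). The mitochondrial superoxide dismutase gene Sod2 was at 427, 333 and 360.0 CPM without and 1575, 1311 and 1572 CPM with LPS (log2 fold change 1.99, SE 0.13, adjusted p = 1.24e-06), and the heme oxygenase gene Hmox1 rose by 1.49 ± 0.12. Gpx1 and Gstm1, which use glutathione, fell by 0.94 and 0.86 on the log2 scale (SE 0.18 and 0.12).

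In iron handling 7 of 19 genes rose and 5 fell. The metal importer gene Slc11a2 was at 73.6, 66.3 and 67.4 CPM in medium and 276, 323 and 264 CPM with LPS (log2 fold change 2.06, SE 0.10, adjusted p = 1.21e-07), and the importer gene Slc39a14 rose by 1.85 ± 0.19. Fth1, the heavy chain of ferritin and the most abundant riser per length, rose by 0.46 ± 0.04. Hfe and Trf fell (-1.72 ± 0.17 and -1.05 ± 0.15). The exporter gene Slc40a1, for ferroportin, was at 63.9, 36.6 and 57.2 CPM in medium and 42.8, 27.2 and 38.4 CPM with LPS (-0.54 ± 0.28, adjusted p = 0.175), and with pool as a block it passed (adjusted p = 0.00434). Tfrc did not pass (0.25 ± 0.15, adjusted p = 0.26). With pool as a block 8 members fell, whereas 3 fell without the pool 18 LPS library or without the medium library of pool 17 or 18.

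Of the 18 tested genes of prostaglandin and leukotriene metabolism 6 rose and 8 fell. Ptgs2, the inducible cyclooxygenase, was at 0.412, 0.978 and 1.41 CPM in medium and 75.8, 127 and 46.3 CPM with LPS (log2 fold change 6.45, SE 0.52, adjusted p = 5.76e-06). Ptges, the synthase of prostaglandin E2, was at 47.4, 36.0 and 39.8 CPM without and 718, 914 and 645 CPM with LPS (log2 fold change 4.20, SE 0.19, adjusted p = 9.6e-08). Alox5, the 5-lipoxygenase, was at 27.3, 36.6 and 29.2 CPM in medium and 4.91, 4.41 and 4.32 CPM with LPS (log2 fold change -2.77, SE 0.25, adjusted p = 1.28e-05), and Ltc4s, which makes leukotriene C4, at 49.0, 43.3 and 41.6 CPM without and 6.07, 4.22 and 6.53 CPM with LPS (log2 fold change -3.01, SE 0.23, adjusted p = 3.29e-06). Alox5ap, the activator of 5-lipoxygenase, and Hpgds, the synthase of prostaglandin D2, also fell (-1.18 ± 0.16 and -2.21 ± 0.17; both chosen after their values were seen). These are transcript levels; the lipids were not measured.

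Genes of class I antigen presentation rose, whereas class II genes were mixed. Of 23 class I and immunoproteasome genes 18 rose and none fell, with a median of 0.77. Tap1, a peptide transporter subunit, was at 21.95, 22.7 and 24.0 CPM in medium and 42.7, 67.2 and 64.4 CPM with LPS (log2 fold change 1.34, SE 0.17, adjusted p = 0.000135), and the immunoproteasome subunit gene Psmb8 at 242, 222 and 327 CPM without and 455, 396 and 540.5 CPM with LPS (log2 fold change 0.82, SE 0.11, adjusted p = 0.000256). B2m and H2-K1 rose by 0.60 ± 0.12 and 0.55 ± 0.14, although their highest medium library lay above their lowest LPS library, and the call of H2-K1 was lost without the batch term (adjusted p = 0.0799). Nlrc5, the transactivator of class I genes, rose by 1.68 ± 0.31 and the nonclassical class I gene H2-Q7 by 2.17 ± 0.19. The 34 constitutive proteasome genes had 14 rises and no falls at a median of 0.23, among them Psma5 (0.72 ± 0.14) and Psmd10 (0.61 ± 0.10). With the pool 16 or pool 18 LPS library or the pool 17 medium library left out, 9 of them rose.

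Among 14 class II genes 2 rose and 4 fell, and with pool as a block 5 rose and 3 fell. Without the pool 18 LPS library 1 rose. H2-Ab1 was at 7.68, 11.5 and 11.6 CPM in medium and 35.9, 34.7 and 37.9 CPM with LPS (log2 fold change 1.81, SE 0.44, adjusted p = 0.00966), and its adjusted p was 0.0705 without the pool 18 LPS library. H2-Aa was at 4.46, 5.58 and 6.11 CPM without and 9.94, 10.9 and 9.56 CPM with LPS, not overlapping (0.87 ± 0.46, adjusted p = 0.193), and passed with pool as a block (adjusted p = 0.000728). Rfx5, a regulator of class II genes, rose by 1.13 ± 0.17, and Ciita, their transactivator, did not pass (2.69 ± 0.96, adjusted p = 0.0551). The peptide-loading genes went down: H2-DMa was at 41.1, 40.1 and 49.2 CPM without and 17.5, 17.3 and 16.5 CPM with LPS (log2 fold change -1.34, SE 0.13, adjusted p = 1.68e-05), and H2-DMb1 fell by 0.56 on the log2 scale (SE 0.10, adjusted p = 0.00132). Cd74 did not pass (0.37 ± 0.45, adjusted p = 0.588; with pool as a block, adjusted p = 0.0119).

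Costimulatory and maturation genes rose in 12 of 16 cases and fell in 1, with a median of 1.72. Cd40 was at 0.412, 0 and 0.261 CPM in medium and 6.13, 4.06 and 5.31 CPM with LPS (log2 fold change 4.48, SE 0.64, adjusted p = 0.00034), and Tnfsf4, the OX40 ligand, at 0.448, 0.0611 and 0.100 CPM without and 11.9, 8.41 and 12.2 CPM with LPS (log2 fold change 5.69, SE 0.61, adjusted p = 4.39e-05). The inhibitory ligand gene Cd274 rose by 0.82 ± 0.09 and Slamf7 by 3.14 ± 0.17. Cd86 went against them: it was at 17.5, 20.6 and 18.5 CPM in medium and 12.3, 12.7 and 9.52 CPM with LPS and fell (log2 fold change -0.74, SE 0.21, adjusted p = 0.0208), with an adjusted p of 0.0584 without the pool 16 LPS library, 0.0542 without the pool 17 LPS library, 0.0579 without the pool 18 LPS library and 0.125 without the pool 18 medium library.

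Genes that mark resident AMs fell as a group: 21 of 32 fell and 5 rose, with a median of -0.50, against 15.7% falling over all genes. Without the pool 17 LPS or the pool 18 medium library 3 rose. Siglecf, a surface lectin that the study's methods use to sort AMs, was at 112, 121 and 113 CPM in medium and 11.3, 13.5 and 8.67 CPM with LPS (log2 fold change -3.38, SE 0.18, adjusted p = 4.33e-07). The mannose receptor gene Mrc1 was at 242, 319.7 and 209 CPM without and 93.5, 124 and 65.5 CPM with LPS (log2 fold change -1.46, SE 0.14, adjusted p = 1.53e-05). The scavenger receptor gene Marco was at 645, 661 and 587 CPM without and 1131, 1348 and 1285 CPM with LPS and rose (log2 fold change 0.99, SE 0.27, adjusted p = 0.017), with an adjusted p of 0.0545 without the pool 17 LPS library and 0.07 without the pool 18 medium library. Car4, a membrane carbonic anhydrase, also rose (1.504 ± 0.27), while Itgax did not pass (-0.31 ± 0.14, adjusted p = 0.124; with pool as a block, adjusted p = 0.0148). Beside these falls the summed markers of interstitial macrophages went from 18.5 to 31.8 CPM in medium to 5.85 to 8.10 CPM with LPS.

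Of the lineage factors 9 of 29 rose and 10 fell. Pparg, the nuclear receptor that AM identity depends on, was at 123, 121 and 122 CPM in medium and 30.4, 27.8 and 28.5 CPM with LPS (log2 fold change -2.08, SE 0.07, adjusted p = 3.03e-08), with almost no spread between pools. Klf4 was at 20.6, 24.2 and 28.9 CPM without and 10.6, 12.1 and 9.22 CPM with LPS (log2 fold change -1.20, SE 0.14, adjusted p = 8.32e-05). Ets2 and Cebpd rose by 2.40 ± 0.11 and 0.997 ± 0.11 and Cebpb by 0.42 ± 0.08. Spi1, which encodes PU.1, did not pass (-0.04 ± 0.07, adjusted p = 0.702), its libraries ranging from 494 to 553 CPM.

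**Figure D5:**
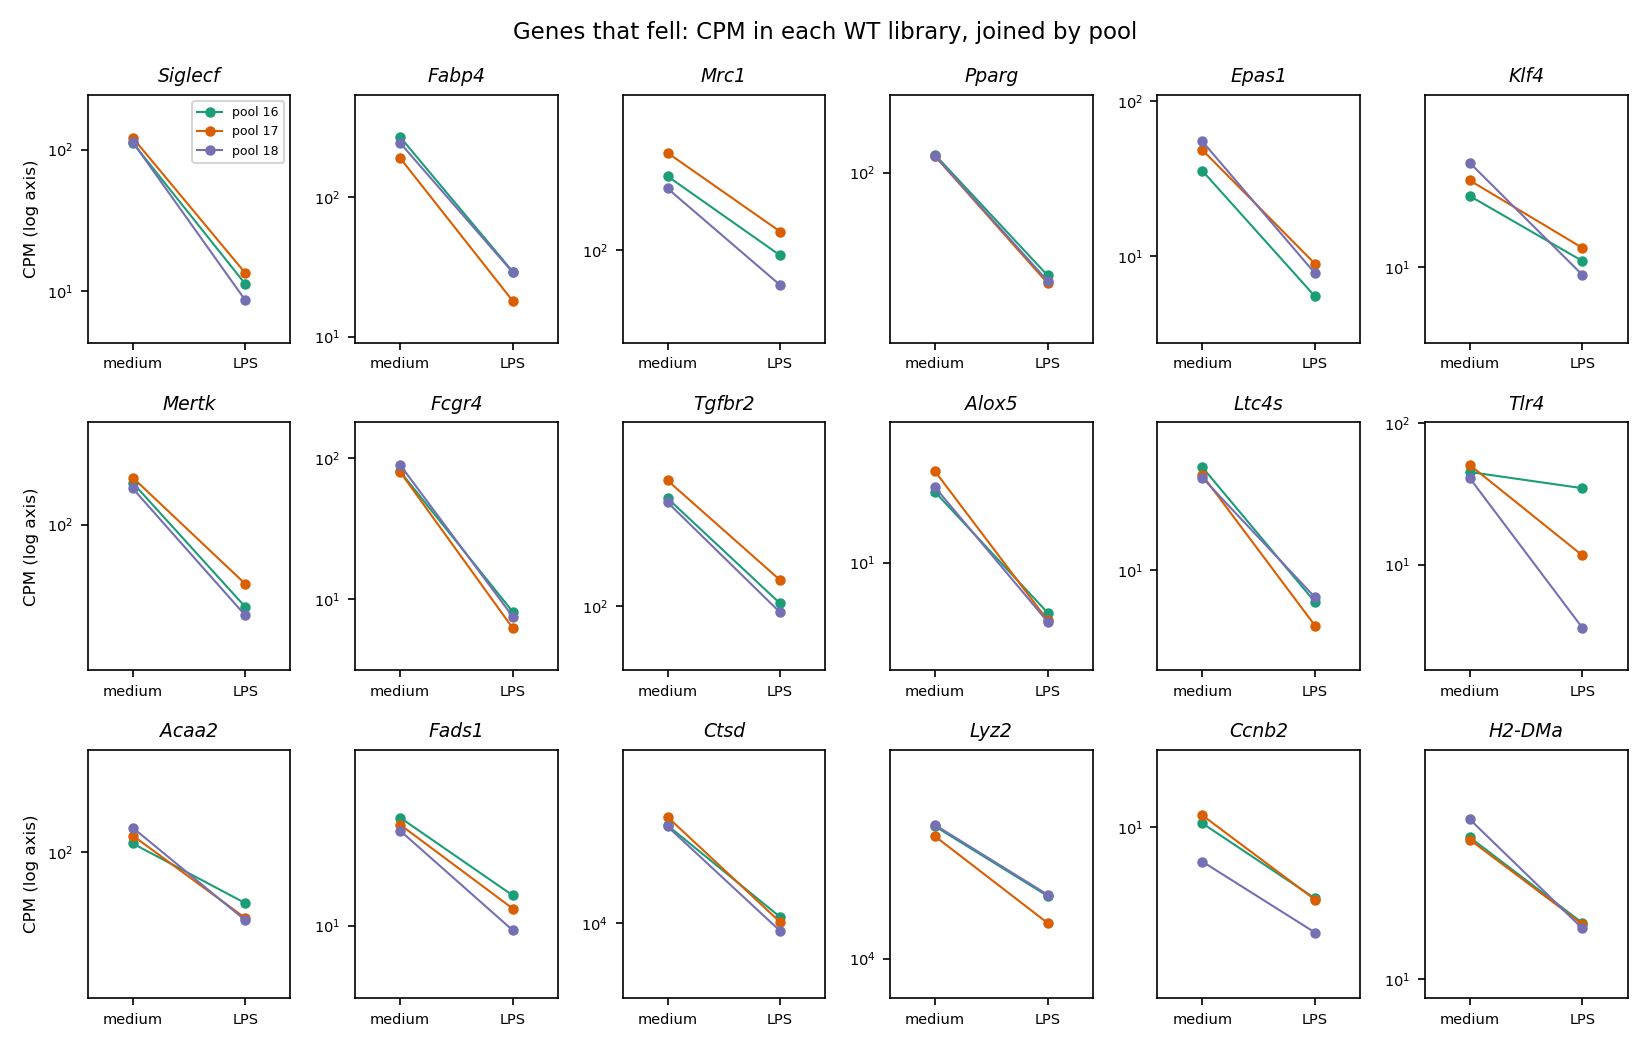
CPM on log axes in each WT library for 18 genes that fell, with medium on the left, LPS on the right and lines joining the arms of each pool. Siglecf and Pparg fell alike in the 3 pools, whereas Tlr4 ended at 34.8, 11.6 and 3.57 CPM in pools 16, 17 and 18.

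Scavenger and phagocytic receptors mostly fell, 16 of 30, while 7 rose. The activating Fc receptor gene Fcgr4 was at 80.7, 80.1 and 89.9 CPM in medium and 8.13, 6.23 and 7.52 CPM with LPS (log2 fold change -3.52, SE 0.13, adjusted p = 4.19e-08). Mertk, which recognises dying cells, was at 169.5, 181 and 158 CPM without and 35.5, 47.4 and 31.9 CPM with LPS (log2 fold change -2.16, SE 0.16, adjusted p = 2.57e-06), and Cd300lf fell by 2.79 on the log2 scale (SE 0.13). Lectin and scavenger genes of pathogen recognition were among the risers. Clec4e, the receptor for mycobacterial cord factor, was at 162, 97.4 and 106 CPM in medium and 1836, 1504 and 1679 CPM with LPS (log2 fold change 3.79, SE 0.23, adjusted p = 8.91e-07), Trem1 rose by 1.96 ± 0.15 and Msr1 by 1.10 ± 0.25.

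The shared signalling adaptors of these receptors parted. Fcer1g was at 695, 551 and 611 CPM in medium and 1662, 1162 and 1508 CPM with LPS (log2 fold change 1.22, SE 0.15, adjusted p = 0.000106). Tyrobp, which encodes DAP12, was at 1241, 902 and 1029 CPM without and 543, 282 and 515 CPM with LPS (log2 fold change -1.26, SE 0.23, adjusted p = 0.00176). Per length, in counts per kilobase of exon scaled to a common total of all libraries (TPM), Fcer1g was at 1836 ± 256 TPM in medium and 4182 ± 742 with LPS and Tyrobp at 4111 ± 755 and 1697 ± 549 (mean ± SD, n = 3), so that their order was exchanged.

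Complement genes had 4 rises and 4 falls among 16. The falls came to 1 without the pool 18 LPS, pool 17 medium or pool 18 medium library and to 2 without any other single library. Factor B, Cfb, was at 332, 291 and 401 CPM in medium and 2223, 2464 and 2301 CPM with LPS (log2 fold change 2.77, SE 0.12, adjusted p = 7.55e-08), and C3 rose by 0.83 ± 0.18. The receptor gene C5ar1 fell by 0.50 on the log2 scale (SE 0.09, adjusted p = 0.00136), and C1qa stayed under 1 CPM throughout.

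Lipid handling under Pparg and the liver X receptors fell in 17 of 29 genes and rose in 4, with a median of -0.57 (-0.36 without the pool 16 LPS library). Fabp4, a fatty acid carrier and Pparg target, was at 270.1, 191 and 245 CPM in medium and 29.2, 18.01 and 28.9 CPM with LPS (log2 fold change -3.23, SE 0.23, adjusted p = 2.19e-06). Angptl4 was at 41.7, 43.0 and 46.3 CPM without and 10.3, 7.44 and 8.61 CPM with LPS (log2 fold change -2.31, SE 0.14, adjusted p = 9.39e-07). The cholesterol exporters moved in opposite directions: Abca1 was at 16.1, 22.1 and 14.8 CPM in medium and 52.3, 96.1 and 65.8 CPM with LPS and rose (log2 fold change 2.03, SE 0.28, adjusted p = 0.000241), while Abcg1 was at 293, 324 and 304 CPM without and 128, 174 and 138 CPM with LPS and fell (log2 fold change -1.07, SE 0.13, adjusted p = 8.59e-05). Acsl1, which activates long-chain fatty acids, rose by 1.88 ± 0.23.

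Fatty acid oxidation and peroxisomal genes fell in 24 of 40 cases, with a median of -0.41, and none rose. The fit with pool as a block gave 25 falls and 1 rise, and 1 rose without the pool 17 LPS or the pool 16 medium library. Acox3 was at 102, 131 and 95.9 CPM in medium and 34.4, 52.8 and 37.1 CPM with LPS (log2 fold change -1.405, SE 0.15, adjusted p = 4.52e-05), and Acaa2, the last step of mitochondrial beta oxidation, at 108, 116 and 124 CPM without and 63.3, 55.4 and 54.4 CPM with LPS (log2 fold change -1.002, SE 0.10, adjusted p = 2.26e-05). Cpt1a, the gate of fatty acids into mitochondria, fell by 0.69 on the log2 scale (SE 0.15, adjusted p = 0.00578). Acadm, a medium-chain dehydrogenase, fell (-0.31 ± 0.09) and its adjusted p was 0.0802 without the pool 17 LPS library, 0.106 without the pool 18 LPS library, 0.0876 without the pool 16 medium library and 0.148 without the pool 18 medium library.

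Synthesis of cholesterol and unsaturated fatty acids fell in 16 of 32 genes and rose in 1, with a median of -0.46. The fit with pool as a block gave 3 rises, and 2 rose without the pool 16 LPS or the pool 17 medium library. Fads1, a fatty acid desaturase, was at 30.3, 28.2 and 26.5 CPM in medium and 13.6, 11.9 and 9.54 CPM with LPS (log2 fold change -1.28, SE 0.24, adjusted p = 0.00188). Fasn, fatty acid synthase, did not pass (-0.06 ± 0.19, adjusted p = 0.866). Scd2, a stearoyl-CoA desaturase, fell (-0.96 ± 0.17), a call lost without the batch term (adjusted p = 0.224). With the pool 18 medium or LPS library left out, or without the batch term, 8 members fell.

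Glycolysis rose in a few steps, 9 of 25, and fell in 1 (2 with pool as a block or without the pool 16 or pool 18 LPS library). Slc2a1, the glucose carrier GLUT1, was at 72.5, 64.9 and 87.6 CPM in medium and 233, 221 and 250.2 CPM with LPS (log2 fold change 1.65, SE 0.11, adjusted p = 1.42e-06). Hk3 and Hk2 rose by 1.24 ± 0.12 and 0.62 ± 0.14 and Ldha by 0.55 ± 0.09. Pfkfb3, a regulator of the pathway, was at 17.2, 24.5 and 19.2 CPM without and 28.8, 39.7 and 16.5 CPM with LPS and did not pass (0.39 ± 0.26, adjusted p = 0.308), and Aldoc fell by 1.53 on the log2 scale (SE 0.14). Of 20 hypoxia genes 4 rose (20%) and 3 fell (15%), near the shares over all genes (15.2% and 15.7%). Hif1a was at 156, 192 and 117 CPM in medium and 282, 374 and 226 CPM with LPS (log2 fold change 0.93, SE 0.11, adjusted p = 7.69e-05), whereas its relative Epas1, which encodes HIF-2 alpha, was at 35.4, 48.3 and 54.9 CPM without and 5.45, 8.86 and 7.69 CPM with LPS (log2 fold change -2.65, SE 0.19, adjusted p = 2.41e-06). P4ha1, a collagen hydroxylase induced in hypoxia, rose by 0.58 ± 0.10 and Pdk1 fell (-1.37 ± 0.20). Vegfa and Bnip3 did not pass (0.78 ± 0.31 and -0.01 ± 0.12, adjusted p = 0.0819 and 0.953; Vegfa passed with pool as a block, adjusted p = 0.0392).

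In the tricarboxylic acid cycle 8 of 27 genes fell and 2 rose. Pcx, pyruvate carboxylase, was at 33.0, 28.1 and 30.9 CPM in medium and 143, 191 and 156 CPM with LPS (log2 fold change 2.41, SE 0.22, adjusted p = 1.39e-05). Mdh2 rose (0.27 ± 0.07) and the pyruvate carrier gene Mpc2 fell (-0.999 ± 0.17). The adjusted p of Mdh2 was 0.0503 without the pool 17 medium library. Suclg2 was at 30.6, 29.9 and 26.3 CPM without and 12.6, 10.4 and 11.8 CPM with LPS (log2 fold change -1.32, SE 0.10, adjusted p = 3.3e-06), Idh1 fell by 0.87 on the log2 scale (SE 0.08) and the succinate dehydrogenase subunit gene Sdha by 0.33 (SE 0.07, adjusted p = 0.00623). Cs did not pass (0.09 ± 0.10, adjusted p = 0.543). With pool as a block 13 members fell, and without the pool 16 LPS library 14 fell. Without the pool 17 medium library 1 rose.

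Nuclear genes of oxidative phosphorylation were hardly called, 6 of 72 falling and none rising, which is below the share falling over all genes (15.7%). Their median was -0.19 (-0.33 without the pool 16 LPS library, -0.05 without the pool 17 LPS or the pool 16 medium library), and within pools 16, 17 and 18 it was -0.14, -0.40 and -0.03. Ndufv2 was at 113, 98.4 and 108 CPM in medium and 87.5, 60.7 and 79.7 CPM with LPS (log2 fold change -0.49, SE 0.15, adjusted p = 0.0275), and its adjusted p was 0.0909 without the pool 17 LPS library, 0.0899 without the pool 18 LPS library, 0.0964 without the pool 16 medium library, 0.0501 without the pool 17 medium library and 0.0745 without the pool 18 medium library. With pool as a block 13 fell and 1 rose, and without the LPS library of pool 16, 14 fell. The count was 3 without the pool 18 LPS library or the pool 18 medium library. Ndufs1 and Ndufv1, which like Ndufv2 belong to complex I, fell (-0.29 ± 0.07 and -0.37 ± 0.08). The adjusted p of Ndufs1 was 0.0567 without the pool 18 LPS library and 0.0672 without the pool 18 medium library, and without the batch term it was 0.0531 for Ndufs1 and 0.0581 for Ndufv1. Cox5a did not pass (-0.17 ± 0.10, adjusted p = 0.237).

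Genes of the translation machinery gave counts of calls that depended on single libraries. Of 78 cytosolic ribosomal protein genes 1 rose, Rpl24 (0.92 ± 0.20, adjusted p = 0.00438), and none fell; the medians within pools 16, 17 and 18 were 0.22, -0.10 and 0.33. With pool as a block 7 rose, and without the pool 17 LPS library 9 rose. Ribosome biogenesis genes rose in 20 of 46 cases and none fell, but 13 rose without the pool 17 LPS library and 12 without the pool 18 LPS library. Ncl, nucleolin, rose by 0.32 ± 0.07, a call lost without the batch term (adjusted p = 0.0661). Rrs1 was at 64.1, 64.7 and 59.0 CPM in medium and 126, 126 and 123 CPM with LPS (log2 fold change 1.002, SE 0.07, adjusted p = 2.31e-06), and Nob1 rose by 0.57 ± 0.11. Myc was at 13.6, 13.1 and 16.98 CPM without and 20.2, 19.4 and 17.9 CPM with LPS and did not pass (0.39 ± 0.17, adjusted p = 0.118). Of 20 aminoacyl-tRNA synthetase genes 2 rose, Rars (0.29 ± 0.07) and Kars (0.26 ± 0.06), and 8 rose and 1 fell with pool as a block. Without the pool 16 LPS library 7 rose and without the pool 18 LPS library 1, when Kars did not pass (adjusted p = 0.0534).

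Stress genes of the unfolded protein and integrated stress response rose in 11 of 28 cases and fell in 2. Ppp1r15a, a phosphatase subunit that restores translation, was at 26.7, 22.02 and 22.7 CPM in medium and 105, 70.1 and 71.5 CPM with LPS (log2 fold change 1.78, SE 0.20, adjusted p = 6.15e-05), and Asns, asparagine synthetase, rose by 0.91 ± 0.08. Ddit3, which encodes CHOP, and the stress kinase gene Eif2ak3 fell (-0.40 ± 0.12 and -0.36 ± 0.11). The adjusted p of Ddit3 was 0.0986 without the pool 17 LPS library, 0.0651 without the pool 18 LPS library and 0.107 without the pool 16 medium library, and 0.253 without the batch term. That of Eif2ak3 was 0.0579 without the pool 16 LPS library, 0.0663 without the pool 17 LPS library, 0.0641 without the pool 18 LPS library, 0.0631 without the pool 17 medium library and 0.107 without the pool 18 medium library, and 0.11 without the batch term. No member of the list fell without the pool 18 LPS library, and 1 fell in each fit without another single library. The chaperone gene Hspa5 was at 1442, 1528 and 1452 CPM without and 2176, 2177 and 1870.5 CPM with LPS (log2 fold change 0.49, SE 0.15, adjusted p = 0.0277), with an adjusted p of 0.0519 without the pool 16 LPS library, 0.0565 without the pool 17 LPS library, 0.0921 without the pool 18 LPS library, 0.098 without the pool 16 medium library and 0.085 without the pool 17 medium library. Xbp1 and Atf4 did not pass (-0.03 ± 0.06 and 0.06 ± 0.09, adjusted p = 0.734 and 0.707).

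Cell cycle genes fell in 13 of 48 cases and rose in 5, and without the batch term 5 fell. E2f2, an activator of S phase genes, was at 20.2, 28.0 and 21.6 CPM in medium and 6.01, 6.37 and 3.57 CPM with LPS (log2 fold change -2.16, SE 0.22, adjusted p = 2.71e-05), and the mitotic cyclin gene Ccnb2 at 10.4, 11.3 and 6.93 CPM without and 4.69, 4.63 and 3.27 CPM with LPS (log2 fold change -1.17, SE 0.16, adjusted p = 0.000302). Cdkn1a, which encodes the cell cycle inhibitor p21, rose by 0.60 ± 0.08 and Cdk6 by 0.95 ± 0.09. Cdc25a, a phosphatase that opens S phase, rose by 0.75 ± 0.13, and the replication gene Mcm5 did not pass (0.41 ± 0.17, adjusted p = 0.0998). Mki67 was at 17.5, 22.6 and 11.9 CPM in medium and 15.2, 20.3 and 8.42 CPM with LPS and did not pass (-0.28 ± 0.16, adjusted p = 0.223). Pool 18 was lowest and pool 17 highest for Ccnb2 and Mki67 in medium.

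Lysosomal genes fell broadly but by small amounts: 30 of 50 fell and 5 rose, with a median of -0.37. Ctsd, cathepsin D, was at 27571, 30099 and 27275 CPM in medium and 10681, 10135 and 9247 CPM with LPS (log2 fold change -1.500, SE 0.07, adjusted p = 1.06e-07), the largest fall of the list above 5 CPM. Lamp1 was at 1629, 1771 and 1739 CPM without and 1194, 1223 and 1126 CPM with LPS (log2 fold change -0.54, SE 0.06, adjusted p = 9.98e-05), and Atp6v0d2, a proton pump subunit, at 1997, 1974 and 2042 CPM without and 1151, 1129 and 924 CPM with LPS (log2 fold change -0.91, SE 0.08, adjusted p = 6.54e-06). Ctsf, cathepsin F, fell as well (-1.37 ± 0.12), and Tfeb, a regulator of lysosomal genes, fell (-0.91 ± 0.26), with an adjusted p of 0.0853 without the pool 17 medium library and 0.0581 without the pool 18 medium library. The pump subunit genes Atp6v1h and Atp6v1e1 rose by 0.49 ± 0.08 and 0.47 ± 0.10. Among 28 autophagy genes 4 rose and 4 fell (14.3% each), near the shares over all genes (15.2% and 15.7%). The cargo receptor gene Sqstm1 rose by 0.92 ± 0.19 and Atg7 fell by 0.80 on the log2 scale (SE 0.13). Map1lc3b and Ulk1 did not pass (-0.11 ± 0.11 and -0.07 ± 0.13, adjusted p = 0.495 and 0.739). Without the pool 17 medium library 2 autophagy genes fell, and with pool as a block 6 fell.

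Matrix-degrading enzymes gave some of the largest rises. Mmp13, a collagenase, was at 3.65, 2.85 and 3.58 CPM in medium and 613, 746 and 436 CPM with LPS (log2 fold change 7.48, SE 0.41, adjusted p = 4.73e-07). Mmp14 was at 26.6, 26.0 and 21.1 CPM without and 451, 570.2 and 415 CPM with LPS (log2 fold change 4.29, SE 0.19, adjusted p = 1.01e-07), and Mmp12, the macrophage elastase, at 517, 704 and 791 CPM without and 3337, 3775 and 2906 CPM with LPS (log2 fold change 2.32, SE 0.20, adjusted p = 8.41e-06). The inhibitor gene Timp2 was at 66.3, 87.0 and 86.0 CPM in medium and 26.0, 32.0 and 29.7 CPM with LPS and fell (log2 fold change -1.45, SE 0.19, adjusted p = 0.000202), while Timp1 stayed under 1 CPM. Spp1, osteopontin, was at 2859, 1841 and 3556 CPM without and 974, 711 and 884 CPM with LPS and fell (log2 fold change -1.66, SE 0.17, adjusted p = 3.74e-05). Over the list of 24 genes 7 rose and 5 fell.

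Of 20 integrin and adhesion genes 4 rose (20%) and 5 fell (25%), against 15.2% and 15.7% over all genes. Icam1 was at 257, 241 and 189 CPM in medium and 707, 766 and 702 CPM with LPS (log2 fold change 1.67, SE 0.11, adjusted p = 1.52e-06), and the fibronectin receptor subunit gene Itga5 rose by 1.39 ± 0.14 and Cd44 by 0.51 ± 0.10. Itgb5 was at 184, 249 and 187 CPM without and 66.6, 89.7 and 63.0 CPM with LPS and fell (log2 fold change -1.504, SE 0.14, adjusted p = 1.68e-05), as did Itga4 (-1.04 ± 0.18). Cytoskeletal genes rose in 15 of 34 cases and fell in 5, and 3 fell without the pool 18 LPS library. Marcks, an actin-binding substrate of protein kinase C, was at 9.78, 8.03 and 10.9 CPM in medium and 65.8, 61.8 and 54.2 CPM with LPS (log2 fold change 2.67, SE 0.15, adjusted p = 4.34e-07), and Tpm4 rose by 0.95 ± 0.09. Lmna, lamin A, fell (-0.72 ± 0.10). The actin-binding Coro1a fell by 1.83 on the log2 scale (SE 0.09). Actb and Vim did not pass (-0.18 ± 0.26 and -0.26 ± 0.15, adjusted p = 0.65 and 0.229).

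Chromatin and rhythm genes went in both directions. Of 42 DNA and histone modifying genes 7 rose (16.7%) and 5 fell (11.9%), near the shares over all genes (15.2% and 15.7%). The falls came to 3 without the pool 16 or pool 18 LPS library or the pool 17 medium library. Kdm6b, a histone demethylase, was at 2.26, 2.36 and 1.99 CPM in medium and 9.43, 10.2 and 11.3 CPM with LPS (log2 fold change 2.22, SE 0.15, adjusted p = 1.82e-06), Tet2 rose by 0.85 ± 0.16 and Hdac5 fell by 1.12 on the log2 scale (SE 0.10). Dnmt3a did not pass (-0.17 ± 0.22, adjusted p = 0.612). Of 26 circadian and nuclear receptor genes 5 rose (19.2%) and 6 fell (23.1%). The rises came to 3 without the pool 17 LPS or the pool 18 medium library and to 2 without the pool 18 LPS library. Tsc22d3, a glucocorticoid target, was at 97.0, 86.1 and 62.1 CPM without and 36.8, 35.4 and 28.8 CPM with LPS and fell (log2 fold change -1.27, SE 0.11, adjusted p = 6.86e-06), as did the clock output gene Dbp (-1.11 ± 0.12). The clock repressor gene Cry2 and the thyroid hormone receptor gene Thra rose by 0.58 ± 0.14 and 0.71 ± 0.15 (for Cry2, adjusted p = 0.0573 without the pool 18 LPS library), and the glucocorticoid receptor gene Nr3c1 did not pass (0.19 ± 0.14, adjusted p = 0.345). Nr1d1 was at 16.3, 19.8 and 9.48 CPM in medium and 18.95, 32.8 and 15.4 CPM with LPS (0.57 ± 0.20, adjusted p = 0.0564; with pool as a block, adjusted p = 0.0077).

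Some of the largest changes with at least 5 CPM were in genes of other function. Susd2, a membrane protein, was at 0.0895, 0.835 and 0.563 CPM in medium and 59.0, 72.7 and 54.2 CPM with LPS (log2 fold change 6.99, SE 0.49, adjusted p = 2.05e-06). Tarm1, an activating immune receptor, held at most 3 counts in a medium library, under the floor of 8 counts, and rose at least 129-fold. Lox, an enzyme that crosslinks collagen, was at 0.770, 0.204 and 0.643 CPM in medium and 143, 202 and 142 CPM with LPS (log2 fold change 8.23, SE 0.51, adjusted p = 9.5e-07). Downward, Cnr2, the peripheral cannabinoid receptor, was at 32.9, 46.3 and 34.1 CPM without and 2.16, 3.61 and 1.15 CPM with LPS (log2 fold change -4.07, SE 0.30, adjusted p = 2.64e-06). Ace, the angiotensin-converting enzyme, was at 11.98, 18.03 and 12.2 CPM in medium and 0.739, 1.51 and 1.06 CPM with LPS (log2 fold change -3.66, SE 0.30, adjusted p = 6.54e-06), and Rgs2, which damps G protein signalling, at 47.7, 44.4 and 61.3 CPM without and 4.53, 3.07 and 4.89 CPM with LPS (log2 fold change -3.62, SE 0.16, adjusted p = 9.6e-08). Slco2b1, an organic anion carrier, was at 10.3, 15.1 and 13.1 CPM in medium and 0.0799, 0.0867 and 0.151 CPM with LPS, at or under the floor, and thus at least 85.6-fold lower (adjusted p = 2.5e-06), and Kazald1, Mamdc2 and Rab44 fell as well (-4.43 ± 0.25, -4.28 ± 0.15 and -3.45 ± 0.32). Tmem154 and Frmd4b fell by 3.65 and 3.58 on the log2 scale (SE 0.10 and 0.54).

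Compared per length, the largest gains and losses were in abundant transcripts. Fth1 went from 37024 ± 1737 TPM in medium to 49771 ± 2302 TPM with LPS (mean ± SD, n = 3), the largest gain of any called gene. Prdx1, a peroxidase, went from 10542 ± 2002 to 20370.3 ± 4417, and Slpi, an inhibitor of neutrophil elastase, from 494 ± 100.4 to 7156 ± 1503. Acod1 went from 53.4 ± 14.2 to 3584 ± 210.5 and Cxcl3 from 4.48 ± 2.30 to 3826 ± 496. The largest losses were those of Lyz2, from 65183 ± 5441 to 31940.0 ± 4714, of Ctsd, from 31122 ± 810.2 to 10778 ± 615, and of Psap, the precursor of the saposins, from 9344 ± 852 to 5452 ± 516. Smaller losses were those of Lgals3, galectin 3, from 10232 ± 546 to 7416 ± 379.6, and of Ctsk, cathepsin K, from 8296 ± 1033 to 5889 ± 501. The losses of Lyz2 and Ctsd in this unit exceeded the gains of Fth1 and Prdx1.

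Whether the WT response differed from that of Scnn1b-Tg AMs was tested as an interaction. No gene of 13729 passed (0.0%; lowest adjusted p = 0.12), with 795 genes at unadjusted p under 0.05, and DESeq2 called 77. Nothing above is therefore called particular to WT cells.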

How the data were processed

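Estimated counts per gene were deposited by the authors, who per the study's methods aligned paired reads of SMART-Seq v4 libraries with HISAT2 to mm10, unstranded, in the nf-core RNAseq workflow and derived expected counts from StringTie coverage with GENCODE M20. Without strand, reads of overlapping and antisense genes cannot be told apart (among the genes named, Il1b, Irf7, Tap1, Ltc4s, Cxcl16 and others share exon sequence with another gene), and near-identical copies may share reads. A read was worth about 2.5 counts, so that the floor of 3 reads was taken as 8 counts (0.150 to 0.156 CPM), and floors cover counting error only. Counts were rounded to whole numbers, and genes with too few counts were left out with filterByExpr, which kept 13729 of 20551 genes. All 12 libraries (4 groups of 3 pools) were fitted with edgeR 4.0.16 (R 4.3.3, TMM, quasi-likelihood) with group and library batch as terms. WT LPS was contrasted with WT medium with Benjamini-Hochberg adjustment over all genes tested. P-values of report and closing section come from this fit unless another is named. CPM values use TMM-scaled library sizes. Of the gene IDs 20158 matched GENCODE M21, which gave exon lengths and coordinates (mm10), and the unmatched IDs held 0.245% of counts. Script steps were tested on simulated data.

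The pools are separate sets of animals. Pool numbers were shared between arms, and the 2 libraries of a pool deviated together from their group means (r = 0.186, 0.304 and 0.335 across genes for pools 16, 17 and 18), so that the numbers pair the samples. The fit with pool as a block was an alternative, as were DESeq2 1.42.0, limma 3.58.1 with pool as a random effect, other scaling, other filters, the WT libraries alone, no batch term and leaving out each library. The gene lists, markers and comparison were chosen with earlier results of these data known. Genes were named by a rule: the top 10 called protein-coding genes in each direction, by fold change, that averaged 5 CPM or more and whose groups did not overlap; the 10 largest gains and losses per length; in each list the 2 largest called rises and falls at that level and the members marked as defining; the 10 genes of at least 20 CPM whose difference varied most between pools; and Scnn1b. Names outside it are said to be chosen after their values were seen. A few of the genes the rule names are not reported here.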

Additional observations from a re-analysis of the deposited data

How the results depend on the processing

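The number of genes called between LPS and medium in WT AMs stayed within 1.5 times the main 4242 under all 17 alternatives, as did the number past a log2 fold change of 1 (1492), and no gene was called with opposite signs. DESeq2 called 4821 genes, the fit with pool as a replicate block 5027, limma with pool as a random effect 5305, the fit without a batch term 3370 and the WT libraries alone 3212, where 53.7% of calls were rises against 49.1%. With 1 library left out at a time 3232 to 4259 genes were called and 1378 to 1502 were past 1. With both pool 17 libraries left out, an alternative chosen after seeing the data, 3217 were called. The difference in response between Scnn1b-Tg and WT cells was called for 0 genes, for 77 with DESeq2, and for 0 to 1 with a library left out (1 without Scnn1b-Tg LPS pool 18 or medium pool 17 or 18); the cause was not tested. Of 219 named genes called, 191 kept the call under every alternative and 218 with the replicate block, which lost the call of Nos2, added the calls given beside the genes above and those of Cycs, Gars, Nars, Nop56, Rplp0, Rps6 and Wars, and changed no other call of a gene reported here. Of the 44 list medians, 16 were classed as the same under every alternative and 28 moved under some alternative. Medians of 5 of 44 lists changed sign in some alternative: complement, cytosolic ribosomal proteins, DNA and histone modification, integrins and iron handling. Depth limits the genes at or under the floor, 112 of the risers in medium and 62 of the fallers with LPS, whose fitted fold changes depend on the prior count.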

Other observations

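Some genes with a mean of at least 20 CPM had an LPS difference that varied strongly between pools. Nrros, a regulator of TGF-beta and of oxidant production, was at 201, 226 and 236 CPM in medium and 150.3, 155 and 8.27 CPM with LPS in pools 16, 17 and 18, so that 1 library stood apart. Gdf15, a stress-induced cytokine, was at 187, 49.9 and 161 CPM in medium and 89.6, 282 and 89.8 CPM with LPS, higher with LPS in pool 17 and lower in the other pools. The transcription factor gene Sp1 was at 22.2, 24.9 and 2.59 CPM in medium and 23.1, 26.6 and 24.6 CPM with LPS, low in the pool 18 medium library alone. Cptp, a ceramide phosphate carrier, was at 4.74, 6.50 and 31.4 CPM in medium and 38.0, 7.13 and 36.4 CPM with LPS. Fopnl was at 21.3, 43.7 and 22.97 CPM in medium and 66.4, 20.1 and 60.1 CPM with LPS. None of these 5 genes was called by edgeR (adjusted p = 0.197, 0.782, 0.272, 0.215 and 0.249 for Nrros, Gdf15, Sp1, Cptp and Fopnl). The same list held Tlr4, the LPS receptor gene itself, with differences of -0.38, -2.12 and -3.50 in pools 16, 17 and 18.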
